A study of Homo sapiens with 4 samples.

Results

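Vimentin, fibronectin, N-cadherin and the ZEB, SNAI and TWIST transcription factors were followed in CAPAN2, a long-established line of human pancreatic ductal adenocarcinoma cells, after lentiviral transduction with shRNAs against the polarity gene LLGL1. The 9 genes (VIM, FN1, CDH2, ZEB1, ZEB2, SNAI1, SNAI2, TWIST1 and TWIST2) were chosen by name, with earlier results of these data known. All 9 were measured, by 25 of the 41091 probe sets that carry a single gene symbol. For each of 19775 genes, 1 probe set gave the gene's value, namely the brightest on average over the 4 arrays. There were 4 arrays, 2 of cells given control lentivirus and 2 of cells given lentivirus with LLGL1 shRNAs. The titles write NC and siLLGL1 for these groups, whereas the other labels speak of control lentivirus and of shRNAs. All cells were cultured with 10% serum and transduced with 8 µg/ml hexadimethrine bromide, so the controls carry a lentivirus as well, and each group is a single cell line with no host tissue. The labels call the arrays of a group biological replicates but name no separate cultures, so p-values measure only the spread between these arrays.

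Epithelial-mesenchymal transition (EMT) is the shift of epithelial cells towards a loosely attached, motile state. The zinc finger factors ZEB1, ZEB2, SNAI1 and SNAI2 bind E-box sequences and repress epithelial genes such as E-cadherin, and the basic helix-loop-helix factors TWIST1 and TWIST2 act in the same programme. The intermediate filament protein vimentin, the matrix glycoprotein fibronectin and the mesenchymal cadherin CDH2 are classical markers of cells that have gone through it, and in pancreatic ductal carcinoma EMT is known for its link with invasion and drug resistance.

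The deposited log2 signals had array medians of 2.95 to 2.98, and arrays of a group correlated across probe sets at r = 0.997, against 0.993 to 0.994 between groups (a description over probe sets, which share arrays). LLGL1, the targeted gene, read 6.83 and 6.86 on the control arrays and 6.73 and 6.71 on the arrays labelled LLGL1 shRNA. That log2 difference of -0.12 (95% interval -0.27 to 0.02) did not pass the test (limma adjusted p = 0.22), and the other 2 LLGL1 probe sets differed by 0.09 and 0.06. Every direction below is therefore drawn between libraries as labelled. The probe sets for 18S ribosomal RNA were lower on both arrays labelled LLGL1 shRNA (mean log2 difference -1.97 over 3 probe sets), as were those for the bacterial poly-A control transcripts (-1.14 over 24). Their part in the results below was not tested. In a bulk culture, fewer cells of a type and less RNA per cell cannot be told apart.

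Epithelial markers included some of the brightest signals, though not all were bright. Among 11 measured pancreatic ductal and epithelial markers, single log2 signals ran from 4.28 to 12.80. KRT18 read from 12.58 to 12.80 and EPCAM from 11.01 to 11.25 over the 4 arrays. By contrast, CFTR read from 4.62 to 4.76, and KRT7 read 4.28 and 4.30 on the control arrays. Fibroblasts, leukocytes and endothelial cells express vimentin in tissue. Of their markers, none of 12, 11 and 10 measured passed limma's test between the groups, where 6.28% of all genes did. With values below log2 3 raised to 3, 1 of the 12 fibroblast markers, THY1, passed, higher on the arrays labelled LLGL1 shRNA. The summed linear signal of the fibroblast markers was 112 and 105 on the control arrays and 110 and 130 on the other arrays. A mean below log2 3 was found for 8 of these 12 markers, for 7 of the 11 immune cell markers and for 5 of the 10 endothelial markers. The summed linear signals were 83.6 and 79.8 against 84.8 and 87.1 for immune cell markers, and 72.4 and 74.3 against 76.8 and 78.4 for endothelial markers. Over single markers and arrays the log2 signals ran from 1.01 to 5.50 for fibroblast markers, with COL1A1 the brightest, from 1.06 to 4.44 for immune cell markers, with CD14 the brightest, and from 1.14 to 4.13 for endothelial markers, with ROBO4 the brightest. The largest difference in each list was that of FBLN1 (0.75, adjusted p = 0.192), MS4A1 (0.23, adjusted p = 0.53) and ROBO4 (0.29, adjusted p = 0.165).

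RefSeq places the promoters of VIM at chr10:17227991-17228290, of FN1 at chr2:215436019-215436318 (minus strand) and the outermost of 7 listed ZEB1 starts at chr10:31318167-31318466 (GRCh38.p14). They are shown because these genes were higher together. Each holds 250 bases before and 50 after a start site, 5′ to 3′ on the gene's strand, with the GC box GGGCGG, on either strand, in capitals.
VIM: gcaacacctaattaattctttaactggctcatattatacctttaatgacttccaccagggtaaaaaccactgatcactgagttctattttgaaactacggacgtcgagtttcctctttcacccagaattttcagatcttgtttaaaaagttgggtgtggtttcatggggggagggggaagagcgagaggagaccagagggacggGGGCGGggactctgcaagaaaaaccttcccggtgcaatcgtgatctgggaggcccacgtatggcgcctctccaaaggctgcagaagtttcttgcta
FN1: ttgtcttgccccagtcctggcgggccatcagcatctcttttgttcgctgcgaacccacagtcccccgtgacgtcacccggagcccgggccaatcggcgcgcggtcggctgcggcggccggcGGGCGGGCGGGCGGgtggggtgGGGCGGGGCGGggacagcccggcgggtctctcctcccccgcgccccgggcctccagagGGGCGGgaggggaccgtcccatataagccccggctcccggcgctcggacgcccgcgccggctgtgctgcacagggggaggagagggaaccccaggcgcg
ZEB1: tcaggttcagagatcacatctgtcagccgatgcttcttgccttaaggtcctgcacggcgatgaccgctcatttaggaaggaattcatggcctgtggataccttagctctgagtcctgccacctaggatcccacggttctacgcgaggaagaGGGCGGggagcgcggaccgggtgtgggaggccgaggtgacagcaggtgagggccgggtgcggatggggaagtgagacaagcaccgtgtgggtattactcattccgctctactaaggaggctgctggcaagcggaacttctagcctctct
The GC box is the letter pattern bound by SP1-type zinc finger factors, and it occurs in 45% of all 35114 such windows. The VIM window held 1 match, which begins at position -46 from the start site. The FN1 window held 6, of which the one beginning at -125 overlaps those at -129 and -121 and the one at -107 overlaps that at -102, and the GC content was 76.7% against 48% for VIM. The E-box CACCTG, the letter pattern bound by SNAI and ZEB factors, occurs in 20.6% of all windows. It was found in neither the VIM nor the FN1 window, but in 2 of the 7 ZEB1 windows, beginning at -57 in the one shown, on the other strand. The AP-1 pattern TGANTCA (7.71% of all windows) and the STAT pattern TTCNNNGAA (7.66%) were absent from the windows shown. RefSeq promoters of 6 of the 9 genes were searched for these patterns. Those of SNAI1, SNAI2 and TWIST1 were not searched, although SNAI2 was also higher. A match of letters is a description only.

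VIM, FN1, ZEB1 and SNAI2 were higher on the arrays labelled LLGL1 shRNA, while no member of the 9 was lower past the test. Thus 4 of 9 genes rose, and 0 fell, where 3.21% of all genes tested rose and 3.07% fell, 6.28% together. These shares stand for 635 higher and 607 lower genes, or 671 and 1145 after centring each array on its median and 1212 and 903 after cyclic loess. Because the 9 genes were chosen with earlier results of these data known, setting them beside all genes is a description, not a test. The other 5 members did not pass. The ZEB1 probe set counted here had the highest mean of its gene only through the arrays labelled LLGL1 shRNA. On 6 of the 9 genes both arrays labelled LLGL1 shRNA lay above both control arrays, a pattern seen in 27.7% of all genes, and on 1 gene both lay below, as in 24.7% of all genes. The median log2 difference of the 9 genes was 0.40 against 0.01 for all genes.

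**Figure D1:**
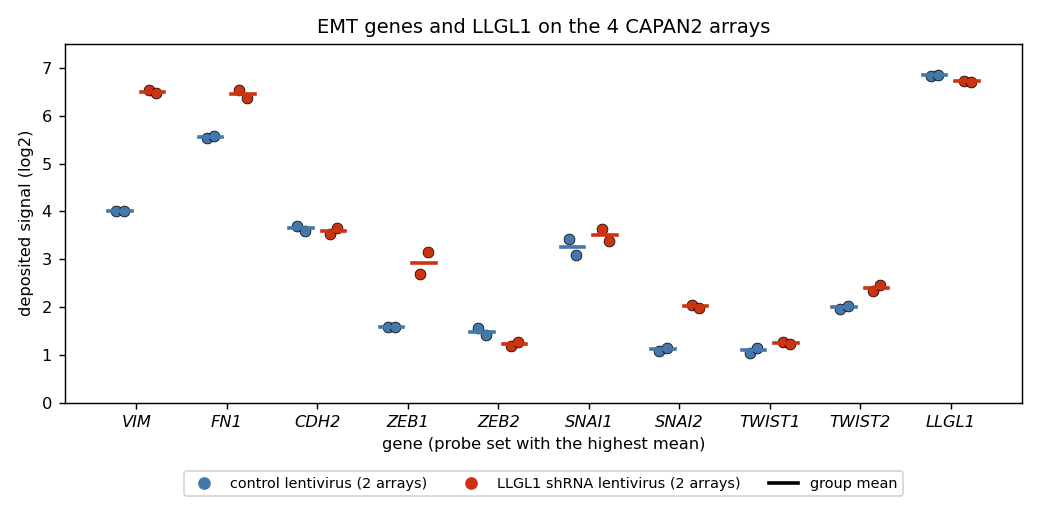
Deposited log2 signal (vertical axis) of the probe set with the highest mean for each of the 9 EMT genes and LLGL1 (horizontal axis), with 1 point per array and a bar at each group mean. The VIM arrays labelled LLGL1 shRNA sit at 6.53 and 6.47, above the control arrays at 4.01, whereas the CDH2 and SNAI1 arrays of the groups overlap.

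VIM encodes vimentin, the type III intermediate filament protein of mesenchymal cells, and lies at chr10:17228241-17237593. Its signal was 4.01 on both control arrays and 6.53 and 6.47 on the arrays labelled LLGL1 shRNA (log2). The groups were far apart: the 4 differences between an array of each group ran from 2.46 to 2.52. Mean signals of 4.01 ± 0.000262 and 6.50 ± 0.0410 (SD, n = 2 each) gave a 5.60-fold rise (log2 2.49, SE 0.0537, limma adjusted p = 0.00816). By size of rise VIM stood 17th among the 19775 genes. The authors' deposited table gives the same probe set a ratio of 5.60 and an unadjusted p of 0.000136, the 25th highest of its 177 ratios above 1. The second VIM probe set, whose suffix x_at marks probes that can match other transcripts, was dim on every array, at 1.07 and 0.894 in controls and 1.07 and 1.03 with LLGL1 shRNA, and its groups overlapped. The mean of both VIM probe sets differed by 1.28 (adjusted p = 0.0133), smaller by over 1.5 times and still past the test.

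FN1 encodes fibronectin, which cells secrete into the matrix and bind through integrins, and lies at chr2:215360865-215436068. Its brightest probe set read 5.54 and 5.58 on the control arrays and 6.53 and 6.38 on the arrays labelled LLGL1 shRNA. Both treated values lay above both control values, by 0.80 to 1.00. The rise was 1.86-fold (log2 0.90, SE 0.0754, 95% interval 0.69 to 1.11, adjusted p = 0.0311). The FN1 probe sets gave a graded picture. The 4 probe sets with a mean of at least log2 5 differed by 0.75 to 0.90. In the fit over single probe sets their adjusted p ran from 0.0478 to 0.053, 2 of them past the threshold. Most of these 4, the brightest included, end in x_at, as the dim VIM probe set does. The bright one without that suffix differed by 0.85 (limma adjusted p = 0.0478). The fifth differed by 0.24 without overlap of the groups, and the 2 dimmest by 0.02 and -0.0018. As the mean of its 7 probe sets FN1 differed by 0.52 (adjusted p = 0.0294).

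CDH2 encodes N-cadherin, the adhesion molecule that often replaces E-cadherin in EMT, and its probe sets disagreed. The brighter read 3.70 and 3.60 on the control arrays and 3.54 and 3.65 on the arrays labelled LLGL1 shRNA. The groups overlapped, and the log2 difference of -0.05 had a 95% interval of -0.26 to 0.16 (adjusted p = 0.72). The dimmer read 1.98 and 1.72 in controls and 2.71 and 2.52 with LLGL1 shRNA. It was higher on both treated arrays, by 0.77 on average, without passing in the fit over single probe sets (adjusted p = 0.0735). The direction of CDH2 therefore depended on the probe set, with a difference of 0.36 (adjusted p = 0.0784) for the mean of both.

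ZEB1 and ZEB2 are paralogous repressors with zinc finger clusters at both ends and a homeodomain between. The ZEB1 probe set with the highest mean read 1.58 on both control arrays, equal to the last deposited digit, and 2.69 and 3.16 on the arrays labelled LLGL1 shRNA. The treated arrays were apart by more than those of any other called member, and both exceeded the controls, by 1.11 and 1.58. The rise was 2.54-fold (log2 1.34, SE 0.174, adjusted p = 0.0398), and the authors' deposited table gives a ratio of 2.54 with an unadjusted p of 0.029. The other 23 member probe sets, including those of FN1 and SNAI2, are not among the 294 probe sets the authors list. The 2 listed are also the only member probe sets that differed at least 2-fold, and those of FN1 and SNAI2 rose 1.86-fold at most. Equal values on both control arrays occurred in 4.54% of probe sets. The other ZEB1 probe sets differed by 0.29, 0.14 and 0.27, all upward, and the groups overlapped in the first of these. The first and second were brighter in controls (means 1.70 and 1.67) than the chosen one. The chosen probe set thus had the highest mean only through the arrays labelled LLGL1 shRNA, so its choice depended on the rise itself. Averaged over its 4 probe sets, ZEB1 lost its call (log2 0.51, adjusted p = 0.0709), as it did in the fit over single probe sets (adjusted p = 0.0593).

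ZEB2 read 1.56 and 1.41 on the control arrays and 1.19 and 1.27 on the arrays labelled LLGL1 shRNA. Both treated values lay below both controls, and the log2 difference was -0.26 (95% interval -0.47 to -0.04, adjusted p = 0.138). The other 4 ZEB2 probe sets differed by -0.02, -0.00047, -0.07 and 0.19, and every ZEB2 probe set stayed below log2 3 on all 4 arrays. No ZEB2 probe set passed the test. The 95% intervals of ZEB1 (0.86 to 1.83) and ZEB2 (-0.47 to -0.04) did not overlap, though the difference between the paralogs was not tested.

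SNAI2, also called Slug, represses E-cadherin and is represented by a single probe set. It read 1.09 and 1.14 on the control arrays and 2.05 and 1.98 on the arrays labelled LLGL1 shRNA. Replicates lay close together and the groups were 0.84 to 0.96 apart, which is 1.86-fold (log2 0.90, SE 0.0586, adjusted p = 0.0249). Its signals remained in the dim part of the arrays in both groups. SNAI1, also called Snail and likewise measured by a single probe set, read 3.42 and 3.09 in controls and 3.62 and 3.38 with LLGL1 shRNA. These groups overlapped, and the difference of 0.25 had a 95% interval of -0.18 to 0.68 (adjusted p = 0.394), so a rise of the size seen for FN1 lay outside it.

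TWIST2 came closest to the threshold among the members that did not pass. It read 1.97 and 2.02 on the control arrays and 2.34 and 2.46 on the arrays labelled LLGL1 shRNA, with no overlap, a log2 difference of 0.40 (SE 0.0689) and an adjusted p of 0.0564. It passed after cyclic loess (adjusted p = 0.0388) and with trend and robust priors (0.0454). Its other probe set differed by 0.12. TWIST1, whose probe set read 1.04 and 1.15 in controls and 1.27 and 1.22 with LLGL1 shRNA, differed by 0.16 (95% interval -0.02 to 0.33, adjusted p = 0.223).

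**Figure D2:**
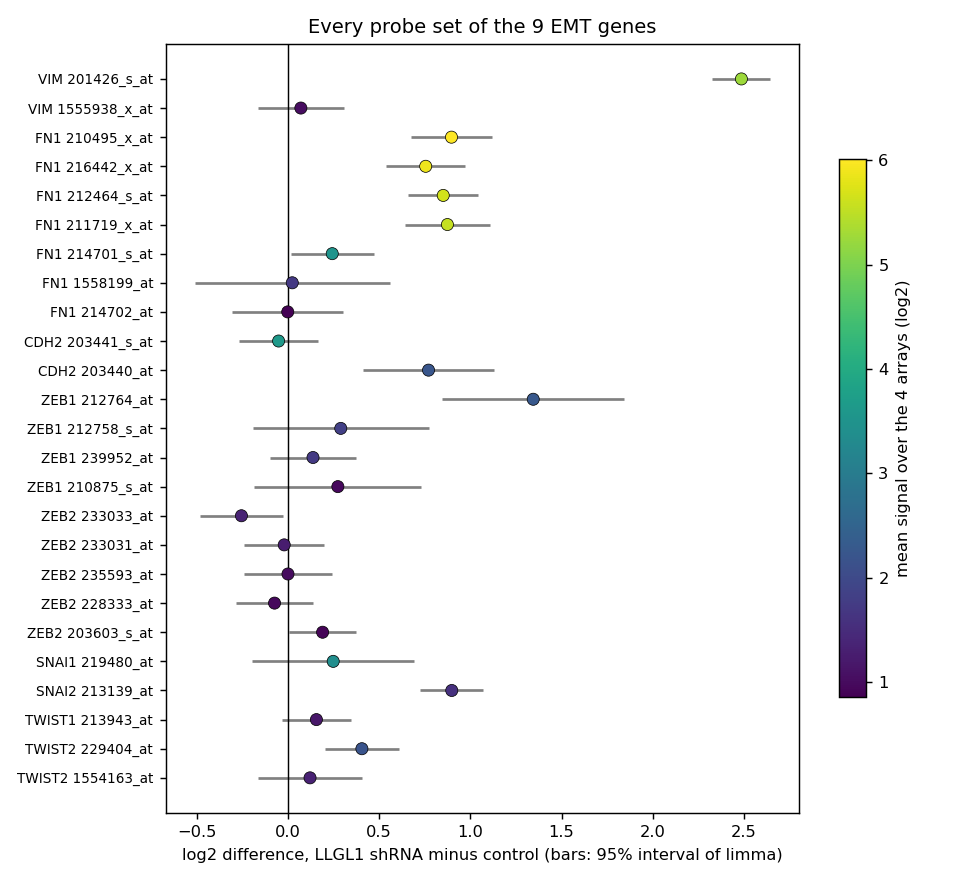
Log2 difference of LLGL1 shRNA minus control (horizontal axis) for every probe set of the 9 EMT genes (vertical axis), with limma's 95% interval as a bar and the mean signal over the 4 arrays as colour. The 4 bright FN1 probe sets lie between 0.75 and 0.90, while the brightest VIM and ZEB1 probe sets, at 2.49 and 1.34, stand apart from the dimmer ones of the same gene.

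Over all 25 probe sets of the 9 genes, 14 were higher on both arrays labelled LLGL1 shRNA without overlap and 1 was lower, beside 23.4% and 24.7% of all probe sets. Tested probe set by probe set, 4 of the 25 passed (1 of VIM, 2 of FN1 and that of SNAI2), where 0.83% of all probe sets did. The 5 member probe sets with a mean of at least log2 5 belong to VIM and FN1 and differed by 0.75 to 2.49. That of VIM reached this mean only through the arrays labelled LLGL1 shRNA, as it read 4.01 on both control arrays. Those of FN1 lay above log2 5 on the control arrays as well. By contrast, 16 of the 25 stayed below log2 3 on every array. At that end of the scale a log2 difference is sensitive to how background was treated, which the sources used here leave unstated. With values below 3 raised to 3, VIM kept its call (adjusted p = 0.0172), FN1 differed by 0.90 without passing (adjusted p = 0.0653), ZEB1 differed by 0.08 (adjusted p = 0.768) and SNAI2 lay at 3 on each array. No gene of the 19775, members included, passed limma's test with the replicate number as a block or with any 1 array left out, fits that have a single residual degree of freedom.

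The genes with a pattern most like VIM, by Euclidean distance between centred log2 profiles over the 4 arrays, were FBN2, which encodes a fibrillin of elastic microfibrils (distance 0.112, log2 difference 2.50), OLFM1, which encodes the secreted glycoprotein olfactomedin (0.124, 2.43), and LY6K (0.124, 2.48). Nearest to ZEB1 were FOXC2, a forkhead factor of mesenchymal cells (distance 0.148, difference 1.40), the secreted protease gene ADAMTS1 (0.148, 1.25) and the lipid raft gene RFTN1 (0.197, 1.20). Of these, RFTN1 did not pass the test (limma adjusted p = 0.0536), and ADAMTS1 passed narrowly (0.0499). With 4 arrays such likeness mainly reflects the size of the group difference and the spread between replicates.

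The following lists were also chosen with earlier results of these data known. Their counts stand beside the 3.21% of all genes that rose and the 3.07% that fell. Other transcription factors linked to EMT moved in both directions. Of 18 measured, 2 rose and 5 fell, with a median log2 difference of -0.17. FOXC2 rose 2.63-fold, from 3.41 and 3.43 on the control arrays to 4.68 and 4.96 (log2 1.40, adjusted p = 0.029), with its other probe set at 0.14. The homeobox factor PRRX1 fell from 9.46 and 9.52 to 8.96 and 8.89 (log2 difference -0.56, adjusted p = 0.0349). ID2, an inhibitor of basic helix-loop-helix factors, fell by 0.55, and the chromatin protein HMGA2 fell by 0.50 (adjusted p = 0.0494, but 0.129 averaged over its probe sets).

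Mesenchymal effector genes showed 4 of 24 higher and 1 lower, with a median of 0.01. LOXL2 did not pass by its brightest probe set (log2 difference 0.02). A dimmer LOXL2 probe set rose from 2.50 and 2.38 to 3.86 and 3.82. That difference of 1.40 passed in the fit over single probe sets (limma adjusted p = 0.035). The receptor tyrosine kinase AXL rose from 3.33 and 2.94 to 4.74 and 4.65, which is 2.96-fold (log2 1.56, SE 0.15, adjusted p = 0.033). CALD1, which encodes the actin-binding protein caldesmon, rose by 1.34 in its brightest probe set, against 0.29 (adjusted p = 0.0608) averaged over its probe sets. The tropomyosin TPM2 rose by 1.03 (0.27 on average over its probe sets, adjusted p = 0.151) and the actin bundler FSCN1 by 0.60 (0.35, adjusted p = 0.055). The TPM2 probe set had the highest mean only through the arrays labelled LLGL1 shRNA. The TPM2 probe set brightest in controls (4.04 and 3.81, against 3.64 on both) differed by -0.13. S100A4, a calcium-binding protein of motile cells, fell by 0.45 from a bright level of 11.49 and 11.56 on the control arrays.

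Among epithelial genes that EMT factors are known to repress, 4 of 27 fell and 1 rose, with a median of -0.10. CDH1, which encodes E-cadherin, read 10.11 and 10.10 on the control arrays and 9.61 and 9.67 on the arrays labelled LLGL1 shRNA. The groups did not overlap, and CDH1 fell 1.39-fold (log2 difference -0.47, SE 0.0537, adjusted p = 0.0356), a call lost in the average of its probe sets (-0.55, adjusted p = 0.0643). The epithelial zinc finger factor OVOL1 fell by 0.69, keratin KRT19 by 0.61 and the splicing regulator ESRP1 by 0.39, of which OVOL1 (adjusted p = 0.069) and ESRP1 (0.107) lost their calls as means of their probe sets. The protease ST14 rose by 0.49 (adjusted p = 0.0389, or 0.0843 as the mean). Keratin KRT7, a ductal marker outside this list, rose by 1.62 in its brightest probe set, while its other probe sets differed by -0.00078 to 0.10. As the mean of all of them KRT7 differed by 0.44 (adjusted p = 0.0359).

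Of 15 measured genes for other intermediate filaments, lamins and linker or chaperone proteins, 4 rose and 1 fell, with a median of 0.07, and 3 of these 5 encode lamins. Synemin (SYNM), a filament protein that assembles with vimentin, rose from 3.99 and 4.12 to 5.25 and 5.34 (log2 1.24, SE 0.075, adjusted p = 0.0246), and it has a single probe set. The B-type lamins LMNB1 (0.68) and LMNB2 (0.55) and the small heat shock protein HSPB1 (0.65) rose. The A-type lamin gene LMNA fell by 0.54 in an x_at probe set (adjusted p = 0.0395, but 0.273 averaged over its probe sets).

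Of 14 measured integrins, fibronectin-binding proteins and N-cadherin partners, 1 rose and 2 fell, with a median of -0.13. TGM2, a transglutaminase that crosslinks matrix and binds fibronectin, rose from 4.18 and 4.14 to 5.30 and 5.22 (log2 1.10, adjusted p = 0.0235), and differed by 0.45 averaged over its probe sets (adjusted p = 0.0307). FGFR1, a receptor that N-cadherin can stabilise, fell by 0.44 (-0.20 as the mean, adjusted p = 0.113). Alpha-catenin CTNNA1 fell by 0.35 in an x_at probe set (-0.41 as the mean, adjusted p = 0.0392). Among 24 partners and stability regulators of the SNAI, ZEB and TWIST proteins, 2 passed, a share near the 6.28% of all genes: the histone methyltransferase EZH2 rose by 0.46 (adjusted p = 0.0475) and AJUBA, a LIM protein that binds SNAI proteins, fell by 0.38 (adjusted p = 0.0464, or 0.0539 as the mean). Their median was -0.07.

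TGF-beta is the best known extracellular inducer of ZEB and SNAI genes, and 2 of its ligand genes moved in opposite directions. TGFB1 rose from 5.13 and 5.21 to 6.26 and 6.27 (log2 1.09, SE 0.0569, adjusted p = 0.0227), with its dimmer probe set at 0.12. TGFB2 fell from 7.14 and 7.22 to 6.08 and 6.19 (log2 difference -1.04, SE 0.0708, adjusted p = 0.0249), with its dimmer probe sets at -1.03 to -0.06. The ubiquitin ligase SMURF2, which targets TGF-beta receptors and SMAD proteins, fell by 0.51. These were the only genes past the test among 18 measured members of the pathway (1 rose and 2 fell, or 1 and 4 after centring each array on its median), whose median was -0.20.

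**Figure D3:**
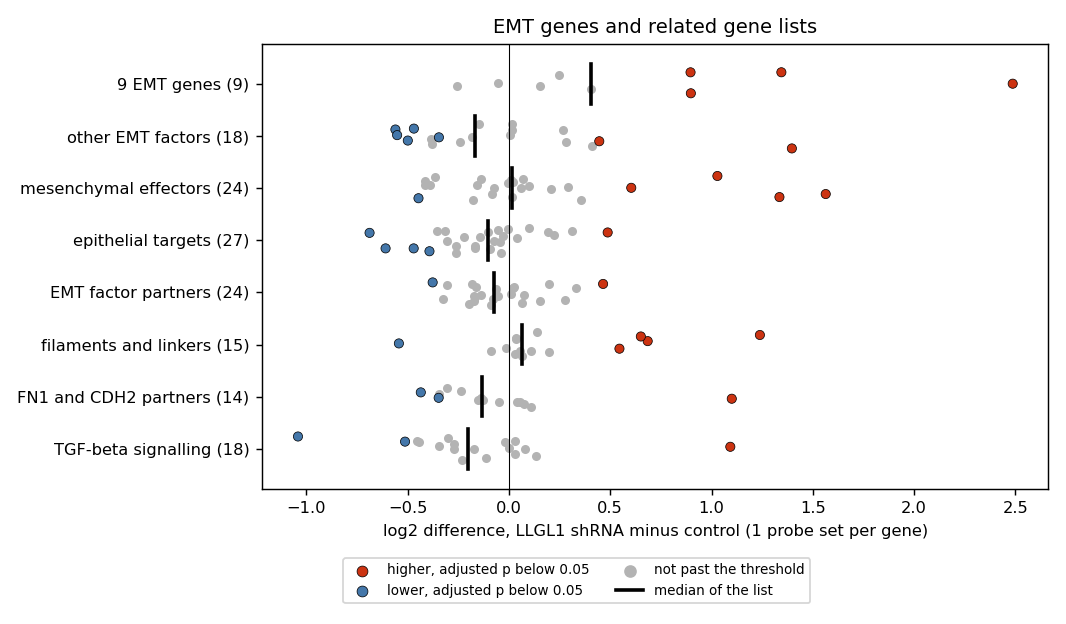
Log2 difference of LLGL1 shRNA minus control (horizontal axis) for each measured gene of the EMT genes and of the 7 related lists (vertical axis, number measured in brackets), coloured by limma's call, with the list median as a black bar. The 9 EMT genes have a median of 0.40, while the medians of the other lists lie between -0.20 and 0.07.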

How the data were processed

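RNA of CAPAN2 cells (100 ng per sample) was labelled for Affymetrix arrays, per the labels' protocols. Signals were deposited by the authors on the log2 scale after RMA summarisation in a workflow that names Partek 6.6 (source: per the submitters' processing notes). How background was corrected is not stated in those notes or labels. The authors' deposited comparison table gives an unadjusted p-value and a ratio per probe set, per the file headers. Its ratios matched the group means of the value table within 1.68e-05 on the log2 scale, which sets scale and direction.

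Gene symbols came from the platform annotation: 41091 with 1 symbol entered, besides 1801 with several and 11777 with none, and 62 control probe sets stayed out. Entrez identifiers of 41037 were found in the RefSeq table, which changed 0 symbols. The gene value was that of the probe set with the highest mean. Groups were compared with lmFit and eBayes (limma 3.58.1, R 4.3.3), two-sided, with Benjamini-Hochberg adjustment over all 19775 genes, or over all 41091 probe sets, calling adjusted p below 0.05. Degrees of freedom were 2 residual and 1.94 prior, and the median SE was 0.0754. The number of arrays limits the precision.

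The members, the gene and marker lists and the naming rule were chosen with earlier results of these data known. Named are the 9 members, LLGL1, FOXC2, CDH1, list genes past the threshold (the 4 largest where more than 5 passed, the largest where none did) and the 3 genes nearest in pattern to VIM and ZEB1. KRT18, EPCAM, CFTR, COL1A1, CD14, ROBO4 and THY1 were named among the markers after their values were seen. LOXL2 was likewise named after its values were seen. A few genes of the lists were not analysed here. Alternatives covered scaling, moderation, dim values, the choice of probe set, replicate blocks, leaving out arrays and a stricter threshold.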

Additional observations from a re-analysis of the deposited data

How the results depend on the processing

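The 4 member calls were kept after median centring, and after cyclic loess and with trend and robust priors TWIST2 joined them (5 in each). As means of all probe sets 3 members passed. Of genes with a mean of at least log2 5, 2 members were tested and 2 passed, and at an adjusted p below 0.01 only VIM passed (1). VIM entered the former set only through the arrays labelled LLGL1 shRNA, having read 4.01 in controls, so its passing there adds no support. For the probe set of median level, the dimmer of the middle pair was taken where a gene had an even number. In that setting 0 members passed in limma (3 at an unadjusted p below 0.05). VIM was then read by the dimmer of its 2 probe sets and differed by 0.07. With values below log2 3 raised to 3, an alternative chosen after seeing the data, 1 passed.

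Counts of all genes past the threshold, 1242 as reported, were 2115 after cyclic loess, 3935 with trend and robust priors, 3939 among genes of at least log2 5, 22 with the probe set of median level, 13 at 0.01 and 614 with the floor at 3. Related-list genes past it, 30 as reported, numbered 58 with trend and robust priors, 56 among genes of at least log2 5, 0 with the probe set of median level (49 at an unadjusted p below 0.05), 0 at 0.01 (69 unadjusted) and 9 with the floor. Of the 30, 18 kept their call as means of all probe sets, and each kept its direction. List by list, TGF-beta signalling had 5 genes past it after median centring in place of 3, and as means of all probe sets epithelial genes had 1 in place of 5, mesenchymal effectors 3 in place of 5 and partners of the EMT factors 1 in place of 2. Probe sets past it, 341 as reported, numbered 2213 after median centring, 2483 after cyclic loess, 5946 with trend and robust priors and 5841 among those of at least log2 5.

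With the replicate block of equal numbers, limma passed 0 genes (4284 at an unadjusted p below 0.05, lowest adjusted p 0.0945), 0 members (6 unadjusted), 0 list genes (56) and 0 probe sets (7487). Deviations of equally numbered arrays correlated at -0.12, so a crossed replicate block was added after seeing the data and passed 0 genes (5520 unadjusted), 0 members (6), 0 list genes (66) and 0 probe sets (9397). Without any 1 array 0 genes (3496 to 4546 unadjusted), 0 members (5 to 6), 0 list genes (47 to 52) and 0 probe sets (6378 to 8024) passed in limma, the lone array being taken to vary like the other group. These fits have too few degrees of freedom to bear on single calls. Without any 1 array VIM differed by 2.46 to 2.52, ZEB1 by 1.11 to 1.58, FN1 by 0.82 to 0.97 and SNAI2 by 0.87 to 0.93.

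Signs turned for CDH2 as the mean of its probe sets (0.36), in the probe set of median level (0.77, its dimmer one) and without LLGL1_shRNA replicate 1 (0.0073, with -0.11 at the other end of that range). They turned for LLGL1 as the mean (0.0079) and in the probe set of median level (0.0915), and in the latter also for RFTN1 (-0.12), OVOL1 (0.036, its dimmer one), LMNA (0.0068) and FGFR1 (0.16). The cause was not tested.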
